A study of Drosophila melanogaster with 9 samples.

Results

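GABA synthesis, vesicle transport and reception were followed through 8 genes, chosen by name: 1 gene for synthesis (Gad1), 1 for loading into synaptic vesicles (VGAT), 3 for ionotropic receptor subunits (Rdl, Lcch3, Grd) and 3 for G-protein-coupled receptors (GABA-B-R1, GABA-B-R2, GABA-B-R3). All 8 of these names occur among the 17478 genes of both tables that the authors deposited, and all 8 had an adjusted p in both. RNA came from whole heads of adult Drosophila melanogaster aged 3 to 5 days, in 3 groups of 3 libraries each. The groups were wild type (WT), kdm5[A512P], with an alanine of the chromatin protein KDM5 replaced by proline, and kdm5[JmjC*], whose KDM5 has no demethylase activity. The labels give no further allele, strain background, sex or pooling of flies, and no treatment was applied. KDM5 is a histone H3 lysine demethylase, and variants of its human relative KDM5C occur in intellectual disability.

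GABA is the main inhibitory transmitter of the insect brain. Glutamate decarboxylase makes it from glutamate, a vesicular transporter loads it into synaptic vesicles, and released GABA opens chloride channels or acts through slower receptors coupled to G proteins. A membrane transporter then takes it up, and a transaminase and a dehydrogenase pass its carbon on to the citric acid cycle. In the fly, this signalling shapes odour processing, sleep and learning.

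The values are the authors' log2 fold changes of mutant over WT, each with the standard error (SE) of their fit. The tables hold no values of single libraries, so the spread between libraries enters only through that SE, and the overlap of single libraries between groups was not examined. The depth of each library is unknown here. The 8 GABA genes took 0.126% of the summed mean normalized counts of all genes (35167778). The kdm5 transcript, named lid, stood at log2 -0.08 in A512P and -0.11 in JmjC* per the authors' deposited tables (adjusted p = 0.61 and 0.431); both alleles alter the protein, so its mRNA level checks no label.

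The GABA genes spanned a 32.8-fold range of level when the mean normalized count over all 9 libraries was divided by exon length. Gad1 was highest at 3968 mean normalized counts per kb, above 95.3% of tested genes. The metabotropic receptor gene GABA-B-R2 (1637 per kb) and Rdl (1445 per kb), which encodes the main subunit of the insect GABA-gated chloride channel, followed. In the middle stood Lcch3, a beta-like subunit gene, at 948 mean normalized counts per kb, VGAT at 846 and GABA-B-R1 at 577. GABA-B-R3, at 326 per kb, was close to the median tested gene, at 313. Grd, at 121 per kb, was the lowest and the only member of the 8 below that median. These levels are means over all libraries with no spread given, so neighbours in this order, such as Lcch3 and VGAT, were not tested against each other.

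**Figure D1:**
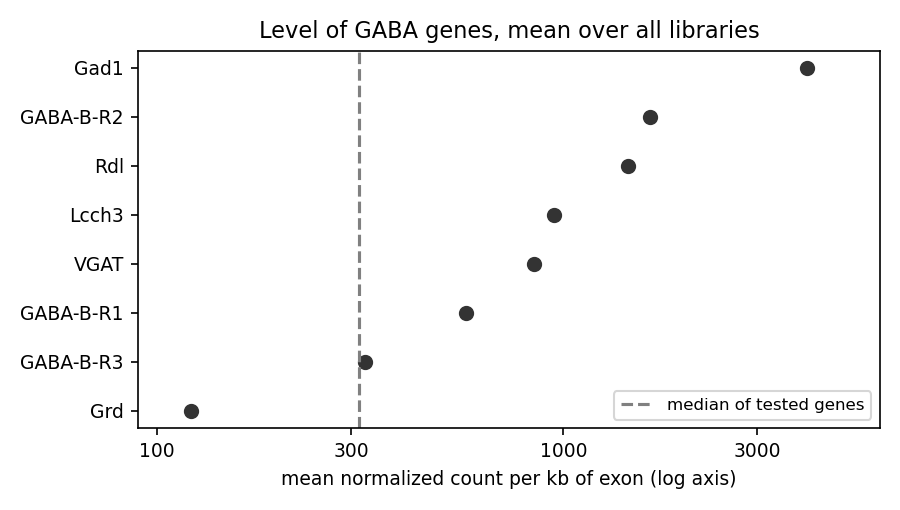
Mean normalized count per kb of exon (log axis) of the 8 GABA genes, 1 point per gene as the authors' mean over all 9 libraries; the dashed line is the median of tested genes. Gad1 stands highest at 3968 per kb, and Grd, at 121 per kb, is the only one of the 8 left of the line.

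The 8 genes are spread over the genome. In the Ensembl annotation of BDGP6.54, 3 lie on 3L, 2 on 2L and 1 each on 2R, 3R and X, and all 8 have the same exon length there as in the authors' tables. Gad1 (FBgn0004516) is at 3L, 4074077 to 4088744, on the minus strand with 4 annotated transcripts. Rdl (FBgn0004244), the longest at 36312 bases, is at 3L, 9145838 to 9182149, minus strand, with 6 transcripts. Grd (FBgn0001134) is at 3L, 17823333 to 17839767, plus strand. GABA-B-R3 (FBgn0031275) is at 2L, 749945 to 762399, and GABA-B-R1 (FBgn0260446) at 2L, 15016331 to 15034704, both on the plus strand. VGAT (FBgn0033911) is at 2R, 14198478 to 14201249, minus strand, GABA-B-R2 (FBgn0027575) at 3R, 21770333 to 21775840, minus strand, and Lcch3 (FBgn0010240) at X, 15925105 to 15928529, plus strand.

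Heads of both mutants held less RNA of the GABA-making and GABA-loading genes and of part of the receptor genes. In A512P, 5 of the 8 genes fell and 0 rose at an adjusted p under 0.05 per the authors' deposited table, against 10.8% of all tested genes lower and 10.2% higher. All 8 log2 fold changes lay below 0, as did 49.4% of those tested. JmjC* gave the same count, 5 lower and 0 higher, against 14.6% lower and 14.2% higher over all tested genes per the authors' deposited table, and 7 of 8 values below 0, against 48.3%. The 5 were Gad1, VGAT, Rdl, Grd and GABA-B-R3 in each, and 8.86% of all genes tested were called lower in both; both comparisons use the same WT libraries, so their sharing is not independent. The median log2 fold change of the 8 genes was -0.34 in A512P and -0.42 in JmjC*, where that of all tested genes was 0.0027 and 0.011. In whole heads, fewer cells that express these genes and less of these RNAs per cell cannot be told apart.

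**Figure D2:**
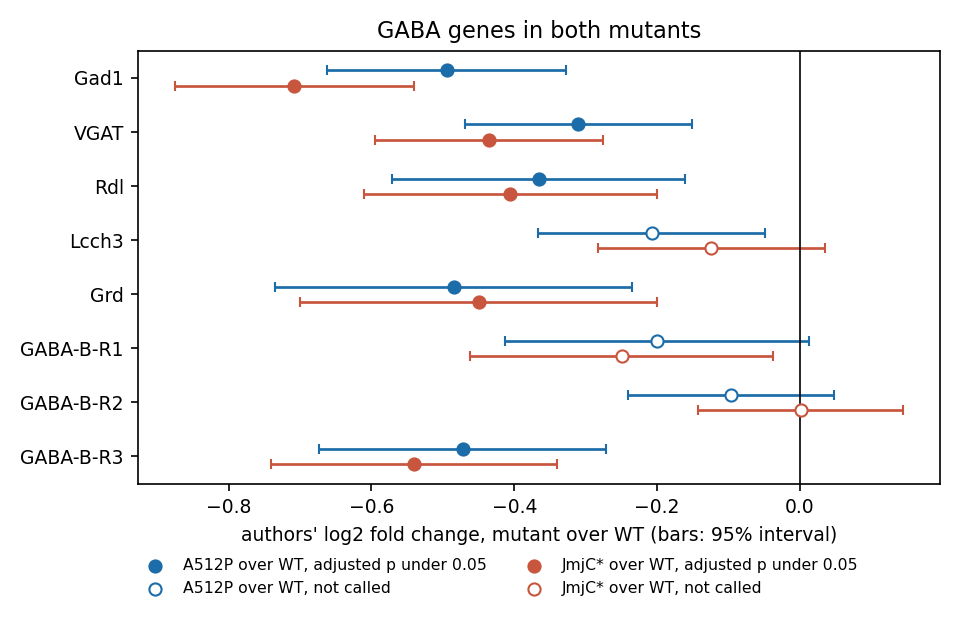
The authors' log2 fold change (x axis) of the 8 GABA genes in A512P (blue) and JmjC* (red) against WT; bars are 95% intervals from the authors' SE, filled points have an adjusted p under 0.05 and open points do not. The 5 filled genes are the same in both mutants, and GABA-B-R2 lies nearest to 0.

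Gad1, the glutamate decarboxylase that makes GABA in neurons, had the lowest value of the 8 in each mutant. In A512P Grd (log2 -0.48) and GABA-B-R3 (log2 -0.47) lay close to it, and the order of these genes was not tested. The authors' deposited table had Gad1 fall by 0.49 ± 0.085 on the log2 scale (SE) in A512P, to 29.0% below WT (adjusted p = 2.59e-07). In JmjC* it fell by 0.71 ± 0.085, to 38.8% below WT, per the authors' deposited table (adjusted p = 9.45e-15). Of all tested genes, 3.30% had a lower log2 fold change than Gad1 in A512P and 1.96% in JmjC*. The gene CG14989 (3L, 4087581 to 4092706) runs on the opposite strand and overlaps the Gad1 span without sharing an annotated exon base. It was named after its values were seen: per the authors' deposited tables it stood at log2 -0.42 in A512P and -0.64 in JmjC* (adjusted p = 1.93e-05 and 4.76e-12). Whether signal of one of these genes is counted for the other was not tested.

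VGAT, the vesicular GABA transporter, fell beside it. The authors' deposited table put it at log2 -0.31 ± 0.081 in A512P, 19.4% below WT (adjusted p = 0.00143). For JmjC* it gave log2 -0.44 ± 0.081, or 26.0% below WT (adjusted p = 1.54e-06, the authors' deposited table). Its values lay nearer to 0 than those of Gad1 in both mutants, but the 95% intervals of both genes overlapped, and the difference between them was not tested.

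Among the ionotropic subunits, Rdl and Grd fell and Lcch3 did not pass. Rdl, the subunit that forms GABA-gated chloride channels by itself and is the target of cyclodiene insecticides, stood at log2 -0.37 ± 0.10 in A512P per the authors' deposited table, 22.4% below WT (adjusted p = 0.00406). In JmjC* Rdl stood at log2 -0.41 ± 0.10 per the authors' deposited table, 24.5% below WT (adjusted p = 8.23e-04). Grd, a subunit gene related to vertebrate GABA-A and glycine receptors, fell by 0.48 ± 0.13 in A512P, to 28.5% below WT, per the authors' deposited table (adjusted p = 0.00156). In JmjC* Grd fell by 0.45 ± 0.13, to 26.8% below WT, per the authors' deposited table (adjusted p = 0.00269).

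Lcch3, whose product forms channels with Grd in frog oocytes, lay at the edge of the threshold in A512P, at log2 -0.21 ± 0.081 per the authors' deposited table (adjusted p = 0.0504). In JmjC* it stood at -0.12 ± 0.081, with a 95% interval of -0.28 to 0.035 (adjusted p = 0.259, the authors' deposited table). Adjusting over genes with a mean normalized count of at least 50 called it in A512P (adjusted p = 0.0457), as did centring on the median of all tested genes (adjusted p = 0.047). The annotation places 456 of its exon bases, 24.0%, under exons of Ranbp16 on the opposite strand, and 140 under an antisense RNA. Ranbp16 stood at log2 0.23 in A512P and 0.26 in JmjC* per the authors' deposited tables (adjusted p = 0.00963 and 0.00199). Grd shares 1118 exon bases, 27.5% of its exons, with CG5577 on the opposite strand, which stood at log2 0.15 and 0.044 per the authors' deposited tables (adjusted p = 0.549 and 0.866). The library kit keeps strand, but no source used here says if reads were counted by strand, so the values of Lcch3 and Grd are uncertain by reads of these partners.

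Of the 3 metabotropic receptor genes, 1 fell in both mutants and 2 passed in neither. GABA-B-R3, an insect receptor gene of the GABA-B family without an assigned role in the heterodimer, was the one that fell. Its log2 fold change was -0.47 ± 0.10 in A512P, 27.9% below WT (adjusted p = 7.54e-05), and -0.54 ± 0.10 in JmjC*, 31.3% below WT (adjusted p = 2.29e-06), per the authors' deposited tables. GABA-B-R1 and GABA-B-R2, whose products pair into the functional receptor, did not pass in either mutant. GABA-B-R1 stood at log2 -0.20 ± 0.11 in A512P (adjusted p = 0.188) and -0.25 ± 0.11 in JmjC* (adjusted p = 0.0681) per the authors' deposited tables. GABA-B-R2 stood at log2 -0.096 ± 0.074 in A512P, with a 95% interval of -0.24 to 0.048 (adjusted p = 0.397, the authors' deposited table). Its JmjC* value was 0.0011 ± 0.073, with an interval of -0.14 to 0.15 (adjusted p = 0.993, the authors' deposited table). The interval of GABA-B-R3 lay wholly below that of GABA-B-R2 in both mutants, from -0.67 to -0.27 in A512P and from -0.74 to -0.34 in JmjC*, while that of GABA-B-R1 overlapped both.

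**Figure D3:**
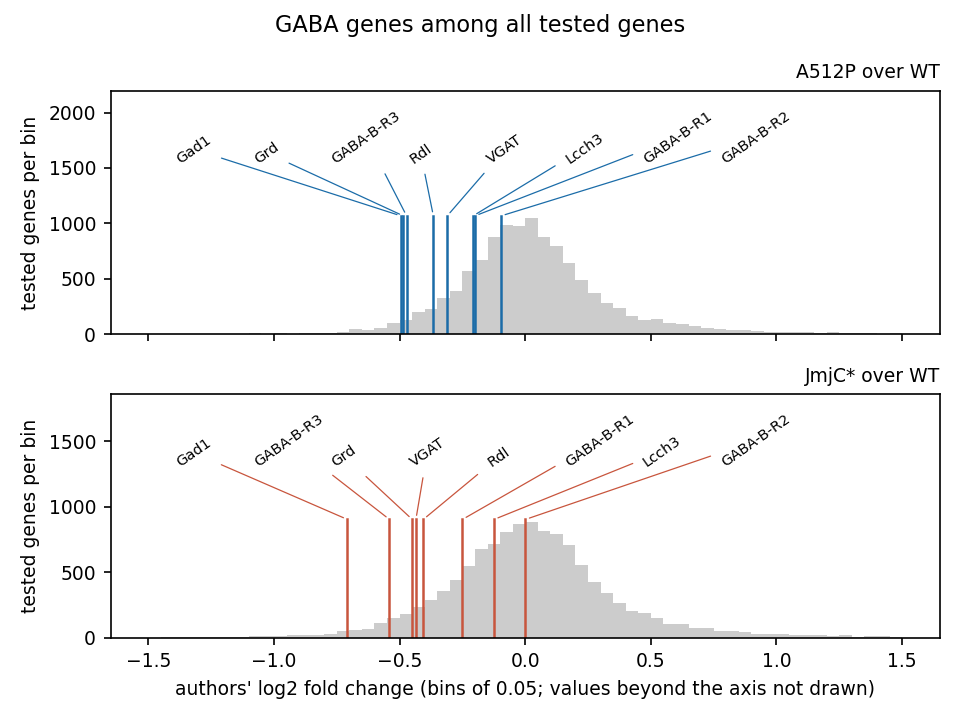
Histograms of the authors' log2 fold change over all tested genes (grey, bins of 0.05) in A512P (top) and JmjC* (bottom), with the 8 GABA genes as lines. Gad1 lies furthest to the left of the 8 in both, with 3.30% and 1.96% of tested genes below it, though close to Grd and GABA-B-R3 in A512P. GABA-B-R2 lies near the centre in JmjC*.

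With the SE of independent comparisons, the 95% interval of the difference between the alleles included 0 for each of the 8 genes. The difference of both log2 fold changes, A512P minus JmjC*, was tested two-sided against the normal distribution with Benjamini-Hochberg adjustment over 11608 genes, and 0 of the 8 genes passed, with 0 of them at an unadjusted p under 0.05; 0.879% of all tested genes passed. Gad1 came nearest, higher in A512P than in JmjC* by 0.21 ± 0.12 (95% interval -0.023 to 0.45, unadjusted p = 0.0772, adjusted p = 0.9997). VGAT differed by 0.12 ± 0.11 in the same direction (interval -0.10 to 0.35). For Rdl the interval was -0.25 to 0.33, for GABA-B-R3 -0.22 to 0.35, for GABA-B-R1 -0.25 to 0.35 and for Grd -0.39 to 0.32. Lcch3 (-0.31 to 0.14) and GABA-B-R2 (-0.30 to 0.11) had, like Grd, point differences below 0, and the other 5 genes had them above 0. The SE used is an upper bound because both comparisons share WT libraries. With a correlation of 0.5 between them, 0 of the 8 passed, beside 3.7% of all tested genes, and 1, Gad1, had an unadjusted p under 0.05 (p = 0.0124, adjusted p = 0.184). At that setting the SE of the Gad1 difference was 0.085, and its 95% interval did not include 0.

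**Figure D4:**
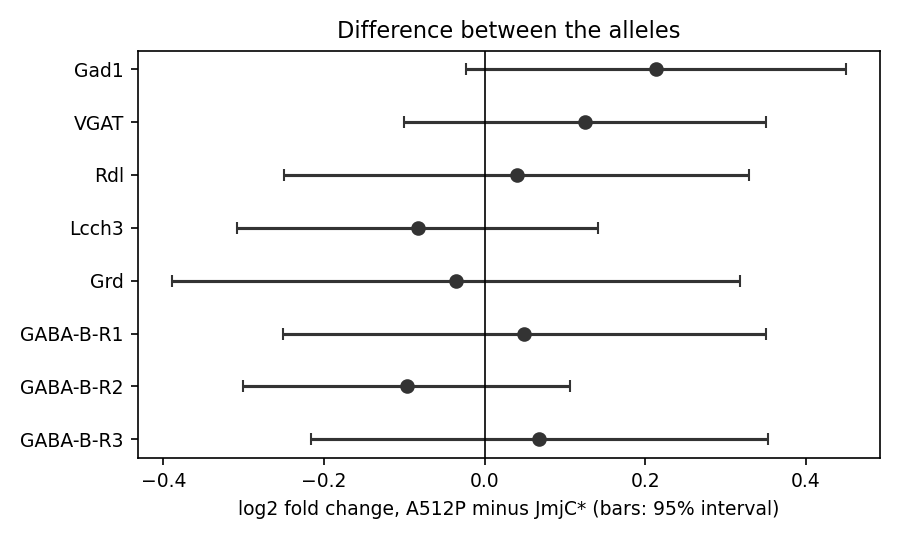
Difference of the authors' log2 fold changes, A512P minus JmjC* (x axis), for the 8 GABA genes, with 95% intervals from the summed variances. All 8 intervals include 0, and that of Gad1 reaches furthest to the right, to 0.45.

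Genes that take up and break down GABA, or handle glutamate, were listed together with b and CG5618, which are not placed in these roles here. Of these 8 genes, 5 fell and 0 rose in A512P and 8 fell and 0 rose in JmjC* per the authors' deposited tables, with medians of log2 -0.27 and -0.40. Over all tested genes, 10.8% and 14.6% were lower. The genes b and CG5618 fell in both mutants and had the lowest values of the list in A512P. Gat, the GABA transporter of glia, fell by 0.32 ± 0.10 in A512P (adjusted p = 0.00982) and by 0.66 ± 0.10 in JmjC* (adjusted p = 2.93e-09) per the authors' deposited tables; the difference between the alleles had an unadjusted p of 0.0203 and an adjusted p of 0.654, and with a correlation of 0.5 between the comparisons it passed (unadjusted p = 0.00103, adjusted p = 0.0333). Gabat, the GABA transaminase, listed as CG7433, stood at log2 -0.13 in A512P (adjusted p = 0.112) and -0.23 in JmjC* (adjusted p = 6.39e-04) per the authors' deposited tables. Ssadh, the succinic semialdehyde dehydrogenase that completes GABA breakdown, fell by 0.21 in A512P and 0.20 in JmjC* per the authors' deposited tables (adjusted p = 0.0196 and 0.0216).

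Gdh, glutamate dehydrogenase, fell by 0.36 and 0.45 in A512P and JmjC* per the authors' deposited tables. The gene b (black), which encodes a decarboxylase that makes beta-alanine, fell by 0.41 and 0.50 there, and CG5618 fell by 0.57 and 0.89, each per the authors' deposited tables. Both glutamine synthetase genes fell in JmjC*, Gs1 by 0.36 and Gs2 by 0.18, and stood at log2 -0.19 and -0.10 in A512P, not past the threshold, per the authors' deposited tables. Gs2 is also a glial marker below.

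Among 9 other genes listed as ligand-gated chloride channels, 8 were tested, and 2 fell with 0 rises in each mutant per the authors' deposited tables (medians -0.18 and -0.23). Of all tested genes, 10.8% were lower in A512P and 14.6% in JmjC*. Values of the list lay below 0 for 6 of 8 in A512P and 7 of 8 in JmjC*. GluClalpha, a glutamate-gated chloride channel, fell by 0.37 in A512P and 0.39 in JmjC*, and CG7589 stood at log2 -0.46 (adjusted p = 0.0372) and -0.41 (adjusted p = 0.0555), per the authors' deposited tables. The pH-sensitive chloride channel gene pHCl stood at log2 -0.19 in A512P (adjusted p = 0.273) and -0.32 in JmjC* (adjusted p = 0.0221) per the authors' deposited tables.

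Of 9 genes for GABA-B effectors and the chloride gradient, 3 fell in A512P, 2 fell in JmjC* and 0 rose in either, with medians of log2 -0.15 and -0.12 per the authors' deposited tables. The share of all tested genes called lower was 10.8% in A512P and 14.6% in JmjC*. In each mutant 7 of the 9 values lay below 0. Irk2, an inwardly rectifying potassium channel, fell in both, by 0.26 and 0.19 (the authors' deposited tables). Galphai, an inhibitory G protein subunit, stood at log2 -0.28 in A512P (adjusted p = 0.00473) and -0.14 in JmjC* (adjusted p = 0.204), and Ncc69, a cotransporter that brings chloride into cells, at -0.23 (adjusted p = 0.0179) and -0.10 (adjusted p = 0.35), per the authors' deposited tables. Galphao, the Go subunit, stood at -0.15 in A512P (adjusted p = 0.281) and -0.29 in JmjC* (adjusted p = 0.0112) per the authors' deposited tables.

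Lower values were not limited to GABA. Of 8 genes that mark other transmitters, 6 fell and 0 rose in each mutant, with medians of log2 -0.35 in A512P and -0.51 in JmjC* per the authors' deposited tables, close to those of the GABA genes. Over all tested genes, 10.8% were lower in A512P and 14.6% in JmjC*. The vesicular glutamate transporter VGlut fell by 0.46 and 0.65, the monoamine transporter Vmat by 0.37 and 0.54, and Tdc2, which makes tyramine, by 0.47 and 0.68 per the authors' deposited tables. The acetylcholine genes ChAT (0.38 and 0.50) and VAChT (0.32 and 0.53) and the histamine enzyme Hdc (0.31 and 0.25) fell by the log2 values given, per the authors' deposited tables. The dopamine and serotonin enzymes ple (log2 0.20 and 0.051) and Trh (-0.0067 and -0.18) did not pass per the authors' deposited tables.

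**Figure D5:**
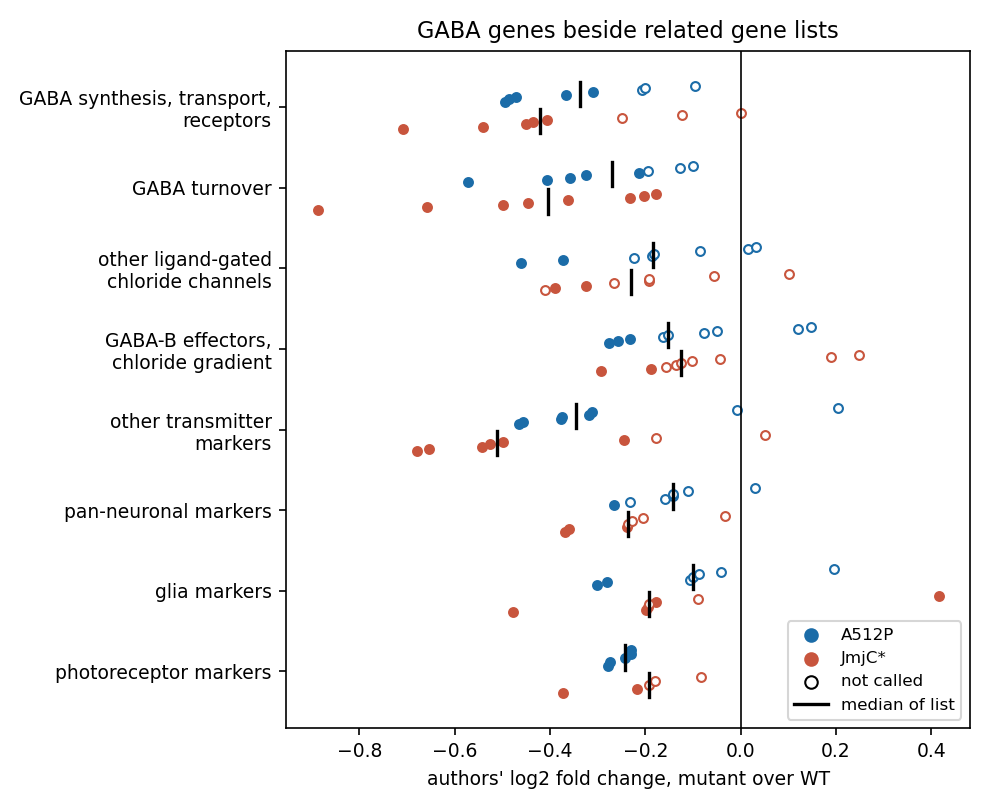
The authors' log2 fold change (x axis) of each gene of 8 lists in A512P (blue) and JmjC* (red) against WT; filled points have an adjusted p under 0.05, and black bars are list medians. The medians of the GABA genes (-0.34 and -0.42) and of the other transmitter markers (-0.35 and -0.51) lie further left than those of the pan-neuronal markers (-0.14 and -0.24).

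General markers of neurons were compared on the same scale. Of 7 pan-neuronal markers, 1 fell in A512P and 3 fell in JmjC*, 0 rose in either, and the medians were log2 -0.14 and -0.24 per the authors' deposited tables. On the authors' scale, 10.8% of all tested genes were lower in A512P and 14.6% in JmjC*. The RNA-binding protein gene elav stood at log2 0.03 and -0.033, the vesicle fusion gene nSyb at -0.27 and -0.24, the calcium sensor Syt1 at -0.16 and -0.21 and the active zone gene brp at -0.14 and -0.23 per the authors' deposited tables. The remaining 3, named after their values were seen, were cpx at log2 -0.23 and -0.37, Syx1A at -0.11 and -0.36, and fne at -0.14 and -0.24 per the authors' deposited tables. In JmjC* cpx (adjusted p = 0.00131), Syx1A (adjusted p = 0.00392) and nSyb (adjusted p = 0.0123) were the 3 that fell, per the authors' deposited table. Centring all genes on the pan-neuronal median shifted every value by that amount and left 3 GABA genes called lower in each mutant, where 4.67% of all tested genes were lower and 24.5% higher in A512P and 4.77% and 44.3% in JmjC*. The median was taken as exact, though it was the value of brp in A512P (SE 0.11) and of fne in JmjC* (SE 0.11). Calls and adjusted p on this scale leave that error out. Gad1 and GABA-B-R3 were lower on this scale in both mutants. Gad1 stood at -0.35 (A512P, adjusted p = 4.02e-04) and -0.47 (JmjC*, adjusted p = 3.79e-07), and GABA-B-R3 at -0.33 (adjusted p = 0.0075) and -0.30 (adjusted p = 0.00854). For Grd, A512P gave -0.34 (adjusted p = 0.0295) and JmjC* -0.21 (adjusted p = 0.153). VGAT stood at -0.17 (adjusted p = 0.102) and -0.20 (adjusted p = 0.0321). Rdl, at -0.22 (adjusted p = 0.0911) and -0.17 (adjusted p = 0.167), passed in neither, and GABA-B-R2 was higher in JmjC* by 0.24 (adjusted p = 0.00401). On this scale the calls over all genes were 542 lower and 2846 higher in A512P, against 1253 and 1183 on the authors' scale, and 567 lower and 5275 higher in JmjC*, against 1736 and 1692.

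Markers of other head cells moved as follows. Of 7 glial markers, 2 fell in A512P; 4 fell and 1 rose in JmjC* (medians -0.10 and -0.19, the authors' deposited tables), with the glial factor repo at log2 -0.28 and -0.20. Named after their values were seen, the glial markers ran from Eaat1, at log2 -0.30 and -0.48, through wrapper, at -0.042 and -0.089, to moody, at 0.20 (adjusted p = 0.0701) and 0.42 (adjusted p = 6.14e-06), per the authors' deposited tables. Photoreceptor markers fell at 5 of 5 in A512P and 2 of 5 in JmjC*, with medians of -0.24 and -0.19 per the authors' deposited tables. Blood cell markers rose at 2 of 5 in each mutant. Fat body markers fell at 0 of 5 and 1 of 5 and muscle markers at 1 of 5 and 2 of 5, in the order A512P and JmjC*. In that order, 10.8% and 14.6% of all tested genes were lower and 10.2% and 14.2% higher. Mean normalized counts summed to 222464 over the pan-neuronal, 84596 over the glial and 1126667 over the photoreceptor markers, and none of the 34 markers of the 6 cell types was at 0. Sums per group were not used here, and the part of cell composition in the values of the GABA genes was not tested.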

How the data were processed

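Messenger RNA of 9 head libraries (3 per group) was sequenced as stranded libraries (500 ng RNA input, 8 cycles of PCR, paired reads of 50 bases), per the labels' protocols. The submitters' processing notes list STAR and DESeq2 without versions. Build, annotation and strand setting: not given in the sources used here. Per the file headers, each of the 2 deposited tables gives a mean normalized count (signal) over all libraries, a log2 fold change with its SE, a Wald score, a p-value and an adjusted p-value. The direction, mutant over WT, comes from the names of the comparisons. The score equalled the log2 fold change over its SE to within 1.21e-13. In A512P the median SE was 0.124 among tested genes and 0.052 at a mean normalized count under 1, so the log2 values are shrunken towards 0 and understate changes of weakly expressed genes. The SE of the 8 genes ran from 0.073 to 0.13.

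The authors' adjusted p was read as deposited (DESeq2, 11608 genes for A512P and 11898 for JmjC*), and a gene with a value under 0.05 counted as a call. Counts of single libraries were not used, so no model was refitted. Intervals are at 95%. The two-sided normal test of the difference between alleles used scipy 1.17.1, and its script was checked on simulated data. Counts were divided by the authors' exon length in bases. Of 17478 gene IDs, 17209 matched Ensembl release 115 of BDGP6.54, and 98.2% of those had an identical exon length. The genes and lists were chosen with earlier results of these data known. The rule named all 8 genes, every gene of the 3 pathway lists and the other transmitter markers that was called in at least 1 comparison with WT, and Gat, Gabat, Ssadh, elav, nSyb, Syt1, brp and repo whether called or not. The transmitter markers ple and Trh, called in neither comparison with WT, were named outside this rule. The remaining cell type markers were given as counts, except those said to be named after their values were seen. The labels do not say whether libraries of a group came from separate flies, so p-values reflect only how these libraries varied, possibly for technical reasons.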

Additional observations from a re-analysis of the deposited data

How the results depend on the processing

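The counts of 5 GABA genes called lower in each mutant were 5 or 6 under a threshold of 0.01, adjustment over every gene with a p-value, adjustment over genes with a mean normalized count of at least 50, and centring on the median of all tested genes. Centring on the pan-neuronal median, taken as exact, gave 3 lower in each mutant, with 0 higher in A512P and 1 higher in JmjC*. Signs turned for GABA-B-R2 in A512P (0.046) and Lcch3 in JmjC* (0.11) on the pan-neuronal scale, and for GABA-B-R2 in JmjC* (-0.010) when centred on all tested genes; none of these passed. Of the 25 tested genes of the 3 other GABA pathway lists, 10 were lower in A512P and 12 in JmjC*, and 7 and 6 were at a threshold of 0.01. Of all tested genes, 10.8% were lower in A512P and 14.6% in JmjC* at the threshold of 0.05. At a threshold of 0.01, lower calls went from 1253 to 831 of 11608 tested genes in A512P. In JmjC* they went from 1736 to 1233 of 11898. Limiting the adjustment to the 9292 genes whose mean count reached 50, 1234 were lower in A512P and 1701 in JmjC*. Each GABA gene belonged to that set. Adjusting over all 15070 genes with a p-value gave 1160 lower in A512P and 1642 in JmjC*. Centring on the median of tested genes gave 1279 and 1838 in that order, of the same 11608 and 11898. The median GABA gene stood above 77.5% of tested genes per kb and 78.4% without length correction, which also changed the order of 6 of the 8 genes. Over all genes, A512P calls went from 2436 to 1609 at a threshold of 0.01, JmjC* calls from 3428 to 5842 on the pan-neuronal scale, and differences between alleles from 102 to 429 with the correlation of 0.5. The alternatives for the difference left 0 GABA genes called. No paired analysis was possible because the tables hold no values of single libraries; leaving out a replicate and an edgeR fit were not run for the same reason. Library depth is unknown, so what depth limits is carried only by the authors' SE.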
